A study of Homo sapiens with 9 samples.

Results

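The RAB GTPases are described here as the 63 gene symbols, of 27800 in the deposited table, that consist of RAB, a number and at most a letter and a further digit (RAB1A, RAB5B, RAB39B). They were chosen by name alone, so antisense, read-through and pseudogene symbols are not members. Expression was measured by RNA sequencing in PANC-1, an established line of human pancreatic tumour cells, with 3 libraries each at day 0, day 2 and day 14. The medium was DMEM, per the labels, with amino acids at 20% of their usual level, fetal calf serum at 0.5% and glucose at 2.5 mM, and the design text named 2 and 14 days of combined nutrient and oxygen deprivation. All groups shared the WT mark of the column headers, and no further treatment was given. Because every sample carries an identical culture description, how the day 0 cells were kept is not known. All groups are a single cell line, with no undeprived cells at day 2 or day 14, so deprivation cannot be told apart from time in culture. The labels did not say that replicates were separate cultures, so the spread behind the p-values is that among these libraries and could be technical.

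RAB proteins form the largest family of small GTPases. Each binds membranes through prenyl groups, is switched on by an exchange factor that loads GTP and off by a GTPase-activating protein, and recruits effectors (tethers, motors, lipid kinases) that move, dock or fuse vesicles. Members mark compartments: RAB1 the path between endoplasmic reticulum (ER) and Golgi, RAB5 early endosomes, RAB11 recycling endosomes, RAB7 late endosomes and lysosomes, and RAB27 secretory organelles. Tumour cells short of nutrients are known to take up protein by macropinocytosis and to recycle their own content by autophagy, and both routes run through RAB-marked compartments.

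Values are in TPM, the length-scaled share of the transcripts of a library, and every library had the same sum, so the sequencing depth was unknown. A gene was tested when it reached 1 TPM in at least 3 of 9 libraries, and 52 of the 63 members and 14144 genes in all did so. Changes are differences of log2(TPM + 1) from a single limma fit of 9 libraries, with p-values adjusted by Benjamini-Hochberg over the 14144 genes, and a gene was called at an adjusted p under 0.05. On this scale the change of low genes is understated. Day 0 replicate 2 stood apart. Genes reaching 1 TPM numbered 11363 there and 13016 to 13868 elsewhere, and ribosomal protein genes took 23.8% of its TPM, against 10.2% to 14.8%. It was the lowest day 0 library for 36 of the 52 tested members and the highest for 11, so for members described in full the changes against day 0 are also given without it. The microRNA symbols held 22.7% to 41.9% of TPM in the libraries, and MIR6723 alone 16.2% to 32.6%. Of 10 hypoxia-induced genes, 10 were higher at day 2 and 9 at day 14. Day 14 replicate 1 was the lowest day 14 library for all of these genes but ADM. In day 14 replicates 1, 2 and 3, CA9 had 0.107, 1.47 and 2.39 TPM, and NDRG1 46.9, 243 and 109 TPM. BNIP3 had 117, 281 and 280 TPM, and ADM 1230, 1218 and 1151 TPM. The day 14 libraries were thus not alike in these genes, and the reason was not tested. The epithelial markers KRT8, KRT18, KRT19, EPCAM and CDH1 were at 8.24 TPM or more in every library, and 4 of the 5 were lower at both days. Of 21 markers of fibroblasts, blood, endothelium, acinar and islet cells, 18 stayed below 1 TPM throughout, among them DCN, PTPRC, CD3E, HBB, CPA1, INS and GCG. The exceptions were CD68 (21.3 to 68.6 TPM), COL1A1 (8.29 to 72.6 TPM) and COL3A1 (0.0800 to 1.73 TPM). COL1A1 was at 8.29, 10.05 and 12.4 TPM at day 14, against 69.2, 55.6 and 72.6 TPM at day 2, with no overlap (log2 change -2.58 ± 0.55, SE, adjusted p = 0.0837), and COL3A1 was lower at day 14 than at day 0 (-0.90 ± 0.24, adjusted p = 0.0194). Their part in the results was not tested. In bulk RNA, fewer cells of a kind and less RNA per cell cannot be told apart.

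**Figure D1:**
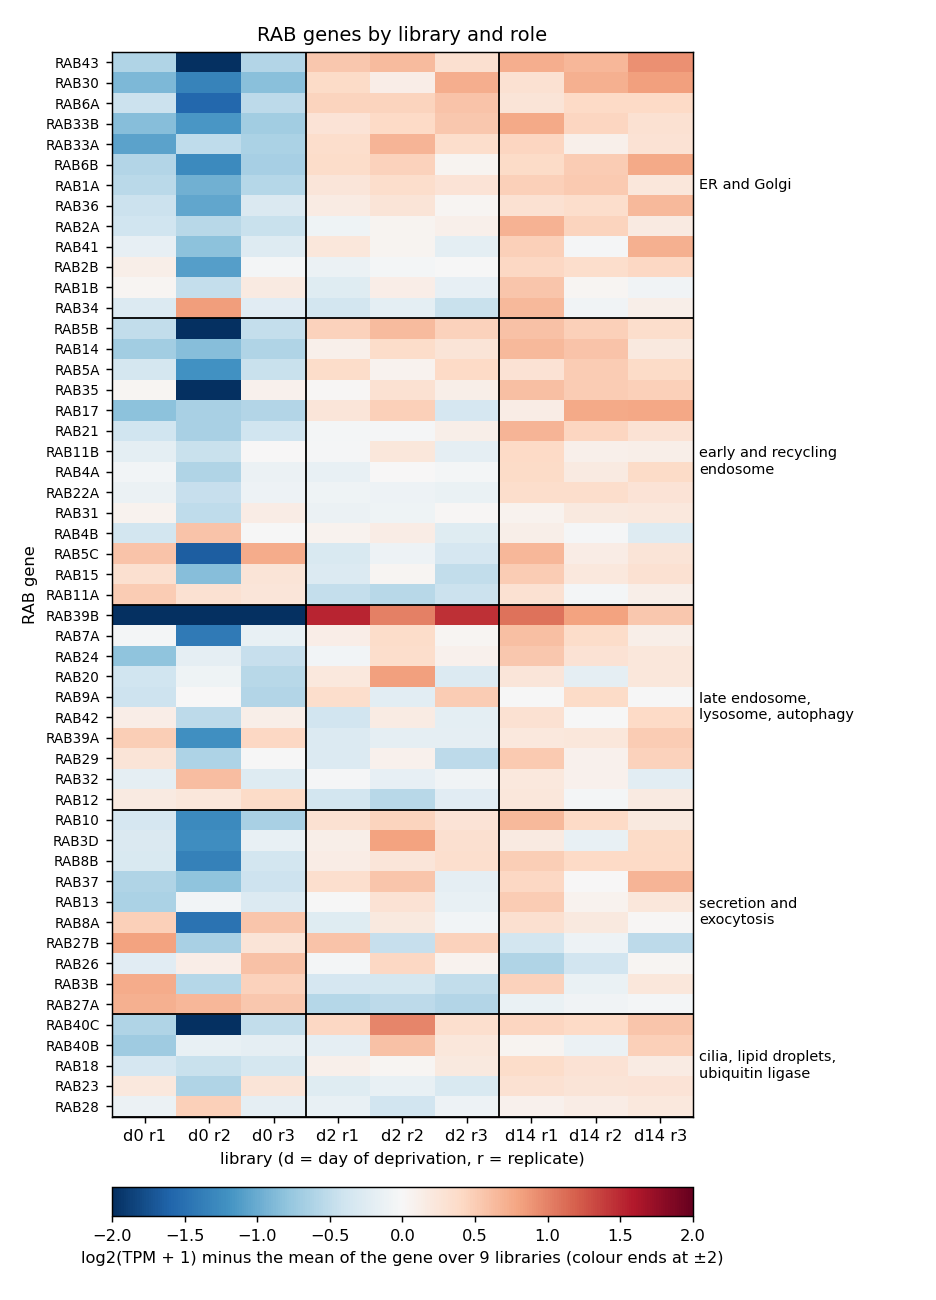
Level of each tested RAB gene (down the page, grouped by role) in each library (across), as log2(TPM + 1) minus the mean of that gene over the 9 libraries. Red is above and blue below that mean; ER and Golgi genes are mostly blue at day 0 and red later, day 0 replicate 2 is the bluest of the day 0 columns for 36 of the 52 genes, and RAB11A, RAB12 and RAB27A run the other way at day 2.

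Most of the family was expressed. By mean TPM over the 9 libraries, 4 members were above 100 TPM, 22 between 10 and 100, 24 between 1 and 10, and 13 below 1. The highest 6 were RAB1B, RAB7A, RAB34, RAB10, RAB6A and RAB1A, which together held 49.4% to 54.6% of the members' TPM in a library. The 11 members not tested were RAB3A, RAB3C, RAB6C, RAB6D, RAB7B, RAB9B, RAB19, RAB25, RAB38, RAB40A and RAB44. Of these, 10 were below 1 TPM in every library, and RAB40A reached 1.10 TPM in day 14 replicate 3. RAB25, the epithelial relative of RAB11, was at 0.125 TPM or less in all 9. RAB3A, of regulated secretion in neurons and endocrine cells, did not pass 0.841 TPM. The summed TPM of the 63 members came to 0.153%, 0.118% and 0.155% of the library in day 0 replicates 1, 2 and 3, to 0.174%, 0.197% and 0.175% at day 2, and to 0.241%, 0.203% and 0.193% at day 14. All deprived libraries were thus above all day 0 libraries, and day 14 replicates 1 and 2 were above all day 2 libraries.

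RAB genes were more often higher than lower at both times. At day 2, 18 of 52 tested members were higher than at day 0 (34.6%, against 19.2% of all genes) and 3 were lower (5.77%, against 11.5%). At day 14, 23 were higher than at day 0 (44.2%, against 27.5% of all genes) and 1 was lower (1.92%, against 6.72%). The 2 comparisons share the day 0 libraries: 18 members were higher in both, and RAB27A was lower in both. Libraries did not overlap for 23 members above and 3 below day 0 at day 2 (33.4% and 17.4% of all genes), and for 31 above and 1 below at day 14 (42.5% and 9.95%). The median change of the members was 0.49 at day 2 and 0.62 at day 14 on the log2 scale, against 0.23 and 0.44 for all genes, which is 0.26 and 0.18 above the median of all genes. Rescaling moved the reference point: under median-ratio scaling the median of all genes was -0.04 at both days, and the members' median stood 0.23 and 0.15 above it. The calls over all genes then split into 2512 higher and 2818 lower at day 2, against 2715 and 1633 in TPM, and 2193 and 2533 at day 14, against 3890 and 951. Under median-ratio scaling the members' own calls were 17 higher and 5 lower at day 2 (32.7% and 9.62%, against 17.8% and 19.9% of all genes). At day 14 they were 13 and 3 (25% and 5.77%, against 15.5% and 17.9%). Under quantile normalization they were 15 and 7 at day 2 (28.8% and 13.5%, against 18.3% and 19.9%), and 15 and 5 at day 14 (28.8% and 9.62%, against 17.1% and 17.4%). They were 21 higher and 9 lower at day 2 (24.7% and 23.6% of all genes) and 27 and 1 at day 14 (34.6% and 14.5%) once day 0 replicate 2 was left out. Day 2 then gained RAB2A, RAB9A, RAB21 and RAB24 as higher and RAB3B, RAB5C, RAB8A, RAB15, RAB23 and RAB39A as lower, and day 14 gained RAB2B, RAB4A, RAB7A, RAB13 and RAB35 as higher. Median-ratio scaling and quantile normalization both gained RAB3D as higher and RAB3B and RAB23 as lower at day 2. At day 14 both gained RAB11A and RAB26 as lower. Quantile normalization alone gained RAB2A as higher and RAB15 and RAB42 as lower at day 2, and RAB3B and RAB27B as lower at day 14. The changes below are given as measured in TPM.

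**Figure D2:**
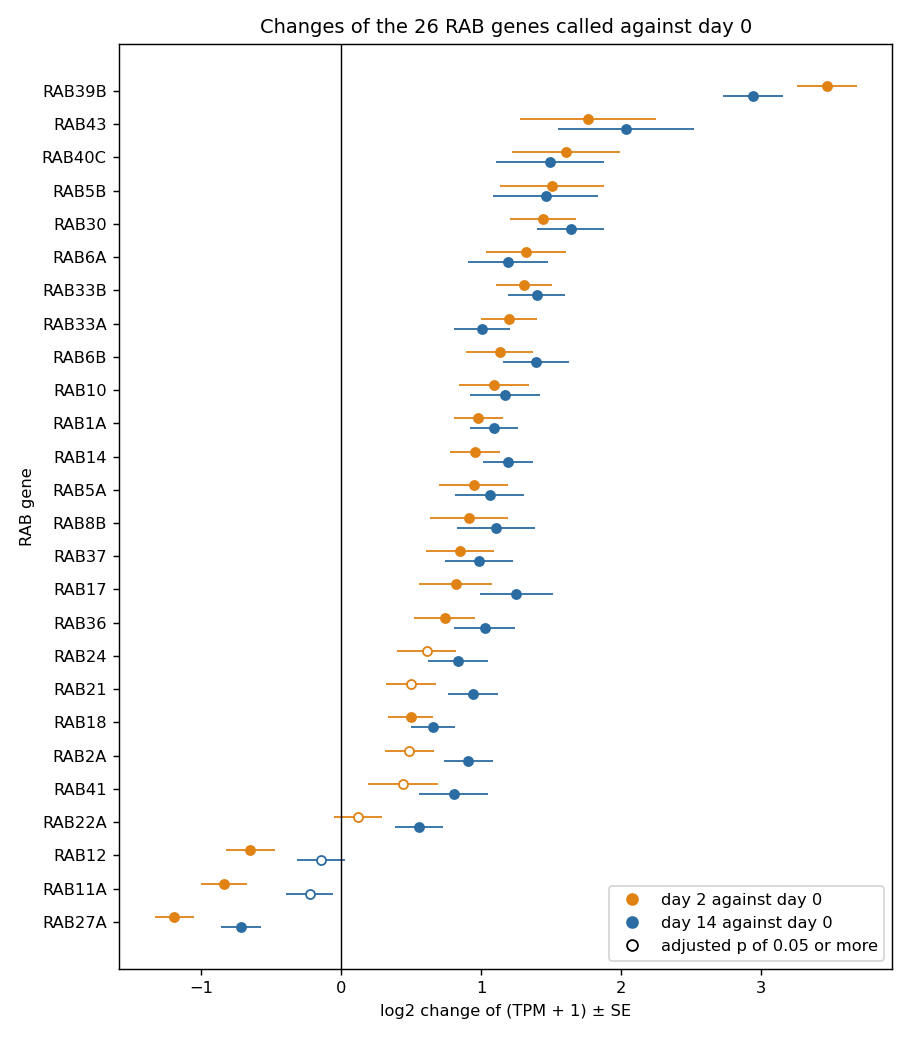
Change in log2(TPM + 1) against day 0 of the 26 RAB genes called in at least 1 comparison, at day 2 (orange) and at day 14 (blue), each with its standard error; open circles mark an adjusted p of 0.05 or more. RAB39B lies apart at 3.47 and 2.95, 3 genes lie left of 0 at day 2, and RAB27A is the called gene left of 0 at day 14.

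The role lists were chosen with earlier results of these data known, so their shares are descriptions and not tests. Among the 13 tested members of the ER and Golgi, 8 were higher at day 2 and 10 at day 14 (61.5% and 76.9%, against 19.2% and 27.5% of all genes). None of these members was lower (11.5% and 6.72% of all genes). Their median change was 0.98 at day 2 and 1.03 at day 14, which is 0.75 and 0.58 above the median of all genes. The higher members were 8 and 6 under median-ratio scaling (61.5% and 46.2%, against 17.8% and 15.5% of all genes). They were 7 and 8 under quantile normalization (53.8% and 61.5%, against 18.3% and 17.1%). Without day 0 replicate 2 they were 9 and 10 (69.2% and 76.9%, against 24.7% and 34.6%). None was lower in these fits either. Unless a replicate is named, 3 values in a row stand for replicates 1, 2 and 3. RAB1A, which drives transport from ER to Golgi and early autophagosome formation, had 59.0, 44.1 and 57.7 TPM at day 0, 102, 111 and 104 TPM at day 2, and 120, 124 and 101 TPM at day 14. Every deprived library held at least 101 TPM and no day 0 library more than 59.0. RAB1A changed by 0.98 ± 0.17 at day 2 (log2 change ± SE, adjusted p = 0.00409) and by 1.09 ± 0.17 at day 14 (adjusted p = 0.00263), or by 0.85 and 0.96 without day 0 replicate 2. Its close copy RAB1B had 225, 159 and 248 TPM at day 0, 187, 242 and 196 TPM at day 2, and 322, 227 and 211 TPM at day 14, and the days overlapped (log2 changes -0.00013 ± 0.24 and 0.26 ± 0.24, SE, adjusted p = 1 and 0.411; -0.19 and 0.07 without day 0 replicate 2). RAB2A, which acts between ER and Golgi and in the fusion of autophagosomes with lysosomes, had 34.7, 30.8 and 33.4 TPM at day 0, 43.3, 47.5 and 49.0 TPM at day 2, and 75.1, 62.9 and 52.3 TPM at day 14. Its deprived libraries were all above day 0, and it was called at day 14 (log2 change 0.91 ± 0.18, SE, adjusted p = 0.00565) but not at day 2 (0.49 ± 0.18, adjusted p = 0.0647). It was called at both days without day 0 replicate 2, at day 2 with 0.44 (adjusted p = 0.0461) and at day 14 with 0.86 (adjusted p = 0.00303). Under median-ratio scaling the day 14 calls of RAB1A and RAB2A ended (adjusted p = 0.0629 and 0.301).

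RAB6A, which guides retrograde traffic and secretory carriers at the Golgi, had 63.6, 28.1 and 59.7 TPM at day 0, 117, 117 and 128 TPM at day 2, and 103, 113 and 114 TPM at day 14. Day 0 replicate 2 was the lowest of all, and no deprived library came near the day 0 range. RAB6A changed by 1.32 ± 0.29 at day 2 (log2 change ± SE, adjusted p = 0.00965) and by 1.19 ± 0.29 at day 14 (adjusted p = 0.014), or by 0.95 and 0.82 without day 0 replicate 2. RAB6B, the form best known from neurons, was low in these cells, with 3.52, 1.82 and 3.33 TPM at day 0, 7.79, 8.37 and 6.05 TPM at day 2, and 7.89, 8.70 and 10.5 TPM at day 14. It rose all the same, with no overlap. RAB6B changed by 1.13 ± 0.24 at day 2 (log2 change ± SE, adjusted p = 0.00843) and by 1.39 ± 0.24 at day 14 (adjusted p = 0.00351), or by 0.92 and 1.18 without day 0 replicate 2. RAB30, a little studied Golgi RAB, had 1.31, 0.704 and 1.42 TPM at day 0, 4.64, 3.71 and 6.18 TPM at day 2, and 4.33, 6.10 and 6.60 TPM at day 14. Its lowest deprived library was at 3.71 TPM and its highest day 0 library at 1.42. RAB30 changed by 1.44 ± 0.24 at day 2 (log2 change ± SE, adjusted p = 0.00309) and by 1.64 ± 0.24 at day 14 (adjusted p = 0.00185), or by 1.28 and 1.48 without day 0 replicate 2. The antisense symbol RAB30-AS1 was at 5.34 to 24.9 TPM. The strand setting was not given in the sources used here, so how reads of the pair were divided is not known.

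RAB33B, a Golgi RAB that binds the autophagy protein ATG16L1, had 2.17, 1.56 and 2.51 TPM at day 0, 5.92, 6.51 and 7.25 TPM at day 2, and 8.61, 6.64 and 6.07 TPM at day 14. The day 2 and day 14 ranges overlapped each other and lay above day 0. RAB33B changed by 1.30 ± 0.20 at day 2 (log2 change ± SE, adjusted p = 0.00227) and by 1.40 ± 0.20 at day 14 (adjusted p = 0.00177), or by 1.18 and 1.27 without day 0 replicate 2. Its relative RAB33A, best known from brain and lymphocytes, had 0.500, 1.22 and 1.04 TPM at day 0, 3.04, 4.05 and 3.04 TPM at day 2, and 3.24, 2.37 and 2.84 TPM at day 14. RAB33A changed by 1.20 ± 0.20 at day 2 (log2 change ± SE, adjusted p = 0.00335) and by 1.01 ± 0.20 at day 14 (adjusted p = 0.00678), or by 1.32 and 1.12 without day 0 replicate 2. The RAB33A call ended under quantile normalization at day 2 (adjusted p = 0.0777), and at day 14 under median-ratio scaling and quantile normalization (adjusted p = 0.104 and 0.38). RAB43, which acts at the Golgi, had 6.05, 0.754 and 6.14 TPM at day 0, 14.6, 15.6 and 12.4 TPM at day 2, and 16.7, 15.9 and 19.3 TPM at day 14. Day 0 replicate 2 was far below the other day 0 libraries, and every deprived library was above them all. RAB43 changed by 1.76 ± 0.49 at day 2 (log2 change ± SE, adjusted p = 0.0257) and by 2.04 ± 0.49 at day 14 (adjusted p = 0.0137), or by 1.09 and 1.36 without day 0 replicate 2. Its day 2 call ended without day 2 replicate 1, 2 or 3 (adjusted p = 0.0741, 0.0785 and 0.0613). The read-through symbol ISY1-RAB43 shares sequence with RAB43 and was at 1.96 to 7.59 TPM, so the split between them is uncertain. RAB36 and RAB41 were low, at 0.246 to 3.01 and 0 to 1.89 TPM. RAB36 was called at both days (0.74 and 1.03; 0.51 and 0.80 without day 0 replicate 2) and RAB41 at day 14 (0.80). The RAB36 call at day 2 ended without day 2 replicate 1, 2 or 3 (adjusted p = 0.0893, 0.0965 and 0.0687), and that of RAB41 without day 0 replicate 2 or day 2 replicate 2 (0.0708 and 0.0535). Both also ended under quantile normalization (0.30, adjusted p = 0.0923, and 0.36, adjusted p = 0.225), and that of RAB41 under median-ratio scaling (0.0717). RAB34, which acts in lysosome positioning and cilium formation, was also counted in the ER and Golgi list. It had 126, 275 and 130 TPM at day 0, 118, 133 and 113 TPM at day 2, and 240, 146 and 165 TPM at day 14. Day 0 replicate 2 was here the highest of all 9 libraries, and neither day was called (log2 changes -0.45 ± 0.32 and 0.12 ± 0.32, SE, adjusted p = 0.31 and 0.796; -0.08 and 0.48 without day 0 replicate 2).

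**Figure D3:**
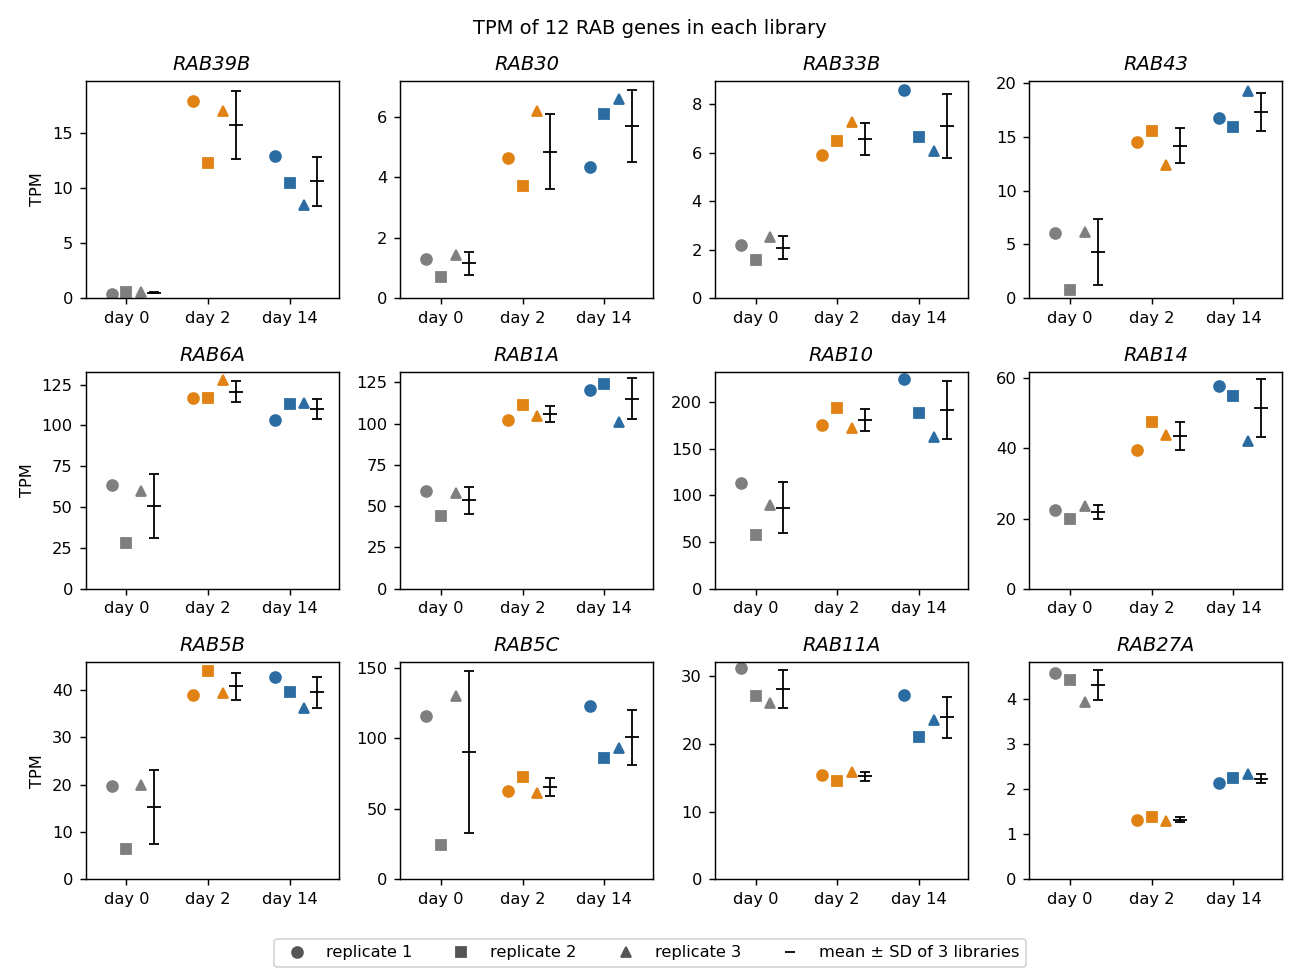
TPM of 12 RAB genes in each library at day 0, day 2 and day 14, by replicate (circle, square, triangle), with the mean and SD of the 3 libraries beside them. For the genes from RAB39B to RAB5B no deprived library reaches down to day 0; RAB5C shows the gap between day 0 replicate 2 (24.0 TPM) and the other day 0 libraries, and RAB11A and RAB27A lie below day 0 at day 2.

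Of the 14 tested members of early and recycling endosomes, 4 were higher (28.6%, against 19.2% of all genes) and 1, RAB11A, was lower at day 2 (7.14%, against 11.5%). At day 14, 6 were higher (42.9%, against 27.5%) and none lower (6.72% of all genes). Without day 0 replicate 2, 5 were higher (35.7%, against 24.7% of all genes) and 3 lower at day 2 (21.4%, against 23.6%). At day 14, 8 were then higher (57.1%, against 34.6%) and none lower (14.5% of all genes). Under median-ratio scaling, 3 were higher and 1 lower at day 2 (21.4% and 7.14%, against 17.8% and 19.9%). At day 14 they were 2 and 1 (14.3% and 7.14%, against 15.5% and 17.9%), so the rises were near the share of all genes. Under quantile normalization they were 3 and 2 at day 2 (21.4% and 14.3%, against 18.3% and 19.9%). At day 14 they were 3 and 1 (21.4% and 7.14%, against 17.1% and 17.4%). The median change was 0.21 at day 2 and 0.56 at day 14, but -0.13 and 0.0061 under median-ratio scaling. RAB5A, which promotes fusion of early endosomes, had 23.0, 12.2 and 21.6 TPM at day 0, 38.6, 31.1 and 39.5 TPM at day 2, and 36.4, 42.5 and 39.1 TPM at day 14. RAB5A changed by 0.95 ± 0.25 at day 2 (log2 change ± SE, adjusted p = 0.0201) and by 1.06 ± 0.25 at day 14 (adjusted p = 0.012), or by 0.68 and 0.79 without day 0 replicate 2. RAB5B had 19.7, 6.30 and 20.0 TPM at day 0, 39.0, 44.1 and 39.3 TPM at day 2, and 42.8, 39.6 and 36.3 TPM at day 14. Both showed their lowest value in day 0 replicate 2, and both lay above all of day 0 in every deprived library. RAB5B changed by 1.51 ± 0.38 at day 2 (log2 change ± SE, adjusted p = 0.017) and by 1.46 ± 0.38 at day 14 (adjusted p = 0.0179), or by 1.002 and 0.96 without day 0 replicate 2. The third form, RAB5C, had 116, 24.0 and 130 TPM at day 0, 62.2, 72.5 and 61.4 TPM at day 2, and 123, 86.1 and 92.8 TPM at day 14. Day 0 replicate 2 was again lowest, below every deprived library, while replicates 1 and 3 were above every day 2 library. RAB5C was not called in the fit of 9 libraries (log2 changes -0.14 ± 0.55 and 0.47 ± 0.55, SE, adjusted p = 0.87 and 0.532), and without day 0 replicate 2 it was lower at day 2 (-0.91 ± 0.17, adjusted p = 0.00357), with -0.30 at day 14. The RAB5A call at day 2 ended without day 2 replicate 1 or 3 (adjusted p = 0.0723 and 0.075), and at day 14 under median-ratio scaling (0.0707). That of RAB5B ended at day 2 without day 2 replicate 2 or 3 (0.0568 and 0.0511) and at day 14 without day 14 replicate 1 or 2 (0.057 and 0.0534).

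RAB14, which links the trans-Golgi network and endosomes, had 22.3, 19.8 and 23.7 TPM at day 0, 39.4, 47.4 and 43.8 TPM at day 2, and 57.8, 54.9 and 42.2 TPM at day 14. All deprived libraries were above all of day 0. RAB14 changed by 0.96 ± 0.18 at day 2 (log2 change ± SE, adjusted p = 0.0052) and by 1.19 ± 0.18 at day 14 (adjusted p = 0.00214), or by 0.89 and 1.12 without day 0 replicate 2. Under median-ratio scaling the adjusted p at day 14 was 0.0549. RAB17, a RAB of epithelial transcytosis, was below 1 TPM in all day 0 libraries and had 0.669, 0.884 and 0.968 TPM at day 0, 2.48, 3.14 and 1.35 TPM at day 2, and 2.27, 4.03 and 4.08 TPM at day 14. RAB17 changed by 0.82 ± 0.26 at day 2 (log2 change ± SE, adjusted p = 0.0426) and by 1.25 ± 0.26 at day 14 (adjusted p = 0.0075), or by 0.84 and 1.27 without day 0 replicate 2. Its day 2 call ended without any of 6 libraries, namely day 0 replicates 1 and 3, day 2 replicates 1 and 2 and day 14 replicates 2 and 3 (adjusted p = 0.0563 to 0.137), and under median-ratio scaling (0.11) and quantile normalization (0.382). The day 14 call of RAB17 ended under quantile normalization (0.13). RAB21, of integrin uptake, and RAB22A, of early endosomes, were called at day 14 and not at day 2 (0.94 ± 0.18 and 0.55 ± 0.17, SE, adjusted p = 0.00528 and 0.0352), and the difference between the days was not called for either (adjusted p = 0.237 and 0.232). Without day 0 replicate 2, RAB21 was higher at day 2 as well (0.41, adjusted p = 0.0371), and RAB22A was not (0.0021, adjusted p = 0.989). The RAB21 call ended under median-ratio scaling and quantile normalization (0.139 and 0.122), and that of RAB22A without any one of 7 libraries, all but day 0 replicates 2 and 3 (0.0508 to 0.105), and under both rescalings (0.95 and 0.988).

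RAB11A, the ubiquitous RAB of recycling endosomes, went the other way at day 2, with 31.3, 27.1 and 26.0 TPM at day 0, 15.4, 14.5 and 15.8 TPM at day 2, and 27.2, 21.1 and 23.6 TPM at day 14. All day 2 libraries were below all others, and day 14 overlapped day 0. RAB11A changed by -0.84 ± 0.17 at day 2 (log2 change ± SE, adjusted p = 0.00654) and by -0.23 ± 0.17 at day 14 (adjusted p = 0.31), or by -0.86 and -0.25 without day 0 replicate 2. Under median-ratio scaling and quantile normalization RAB11A was called as lower at day 14 as well (-0.81 and -0.55, adjusted p = 0.0301 and 0.0366). Day 14 was above day 2 by 0.61 ± 0.17, with an adjusted p of 0.119, the smallest of any member between these days. Its relative RAB11B had 78.6, 66.0 and 90.1 TPM at day 0, 88.3, 105 and 79.4 TPM at day 2, and 119, 96.8 and 97.4 TPM at day 14, not called at either day (log2 changes 0.21 ± 0.19 and 0.41 ± 0.19, SE, adjusted p = 0.408 and 0.117; 0.10 and 0.30 without day 0 replicate 2). The antisense symbol RAB11B-AS1 had 1.01, 1.15 and 1.42 TPM at day 0, 8.22, 7.69 and 9.06 TPM at day 2, and 3.42, 8.06 and 7.89 TPM at day 14. Overlap of this pair was not examined, and how reads were divided between them is not known. RAB35, a RAB of fast recycling, had 43.2, 8.62 and 44.3 TPM at day 0, 42.7, 52.2 and 45.5 TPM at day 2, and 64.3, 60.2 and 58.4 TPM at day 14. It was not called in 9 libraries (log2 changes 0.83 ± 0.53 and 1.21 ± 0.53, SE, adjusted p = 0.255 and 0.105), and without day 0 replicate 2 it was higher at day 14 (0.47 ± 0.11, adjusted p = 0.0111), with 0.09 at day 2. RAB4A and RAB4B, of fast recycling, and RAB15 and RAB31 were not called in TPM in 9 libraries at either day. Under quantile normalization RAB15 was lower at day 2 (-0.56, adjusted p = 0.0206).

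In the late endosome, lysosome and autophagy list, 1 of 10 tested members was higher and 1 lower at day 2 (10% and 10%, against 19.2% and 11.5% of all genes). At day 14, 2 were higher (20%, against 27.5% of all genes) and none lower (6.72% of all genes). The median change was 0.25 at day 2 and 0.45 at day 14, which is 0.0181 and 0.0111 above the median of all genes, and under quantile normalization it was -0.10 at day 14. RAB39B, a RAB best known from neurons that works with the C9orf72 complex in autophagy, had 0.407, 0.544 and 0.519 TPM at day 0, 17.96, 12.2 and 17.0 TPM at day 2, and 12.9, 10.4 and 8.51 TPM at day 14. Day 0 was below 1 TPM in all 3 libraries, and no deprived library was below 8.51. RAB39B changed by 3.47 ± 0.21 at day 2 (log2 change ± SE, adjusted p = 6.74e-05) and by 2.95 ± 0.21 at day 14 (adjusted p = 0.000148), or by 3.50 and 2.97 without day 0 replicate 2. The ratio of mean TPM was 32.1 at day 2 and 21.65 at day 14, against day 0, and this was the largest rise of any member at either day. RAB39A, its paralog, had 3.42, 0.351 and 3.21 TPM at day 0, 1.62, 1.78 and 1.77 TPM at day 2, and 2.64, 2.68 and 3.49 TPM at day 14. It was not called at either day (log2 changes -0.10 ± 0.41 and 0.42 ± 0.41, SE, adjusted p = 0.864 and 0.443), and without day 0 replicate 2 it was lower at day 2 (-0.66 ± 0.14, adjusted p = 0.00563), with -0.14 at day 14.

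RAB7A, the main RAB of late endosomes and lysosomes, had 197, 75.6 and 182 TPM at day 0, 222, 261 and 208 TPM at day 2, and 308, 262 and 221 TPM at day 14. All deprived libraries were above day 0, where replicate 2 was lowest by far, and neither day was called (log2 changes 0.71 ± 0.35 and 0.90 ± 0.35, SE, adjusted p = 0.148 and 0.0733). Without day 0 replicate 2 the changes were 0.28 (adjusted p = 0.191) and 0.46 (adjusted p = 0.0451), so that day 14 was then called. RAB24, of autophagic vesicles, had 17.9, 28.0 and 22.9 TPM at day 0, 30.6, 41.2 and 33.9 TPM at day 2, and 47.0, 39.2 and 37.4 TPM at day 14. It was called at day 14 (0.83 ± 0.21, SE, adjusted p = 0.0173) and not at day 2 (0.61 ± 0.21, adjusted p = 0.0585), and without day 0 replicate 2 at day 14 (0.98, adjusted p = 0.00293) and at day 2 (0.76, adjusted p = 0.00893). The day 14 call ended without day 14 replicate 1 (adjusted p = 0.0589) and under median-ratio scaling and quantile normalization (0.595 and 0.123). RAB12, which acts on lysosomal breakdown of receptors and transporters, was lower at day 2, with 14.8, 15.4 and 17.2 TPM at day 0, 9.86, 8.47 and 10.9 TPM at day 2, and 15.3, 12.6 and 14.8 TPM at day 14. RAB12 changed by -0.65 ± 0.17 at day 2 (log2 change ± SE, adjusted p = 0.0222) and by -0.15 ± 0.17 at day 14 (adjusted p = 0.53), or by -0.67 and -0.16 without day 0 replicate 2. The day 2 call ended without day 0 replicate 3, day 2 replicate 1 or day 2 replicate 2 (0.0643, 0.0731 and 0.0875). It also ended with replicate number as a block, with only the 2 days compared and without microRNA symbols (0.0527, 0.0625 and 0.0951). RAB20, reported elsewhere as a hypoxia-induced gene of endosomes and phagosomes, had 1.75, 2.41 and 1.46 TPM at day 0, 3.17, 5.36 and 2.00 TPM at day 2, and 3.28, 2.21 and 3.24 TPM at day 14. Its days overlapped and neither was called (log2 changes 0.60 ± 0.29 and 0.45 ± 0.29, SE, adjusted p = 0.145 and 0.247; 0.73 and 0.58 without day 0 replicate 2). RAB9A, RAB29, RAB32 and RAB42 were not called in TPM in 9 libraries at either day. Under quantile normalization RAB42 was lower at day 2 (-0.52, adjusted p = 0.0296).

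Of the 10 tested members of secretion and exocytosis, 3 were higher and 1 lower at both days (30% and 10%). Of all genes, 19.2% were higher and 11.5% lower at day 2, and 27.5% and 6.72% at day 14, so the rises at day 14 were near that share. Under median-ratio scaling, 4 were higher and 2 lower at day 2 (17.8% and 19.9% of all genes), and 3 and 2 at day 14 (15.5% and 17.9%). Under quantile normalization they were 3 and 2 (18.3% and 19.9%), and 2 and 4 (17.1% and 17.4%). Without day 0 replicate 2 they were 2 and 3 (24.7% and 23.6%), and 4 and 1 (34.6% and 14.5%). The balance of rises and falls thus depended on the processing. The median change of these members was 0.24 and 0.46, and under median-ratio scaling it was -0.10 and -0.13. RAB10, which carries the glucose transporter GLUT4 and other cargo to the cell surface, had 113, 58.0 and 89.96 TPM at day 0, 176, 194 and 172 TPM at day 2, and 224, 188 and 163 TPM at day 14. The 113 TPM of day 0 replicate 1 was the highest day 0 value and the lowest deprived library stood at 163. RAB10 changed by 1.09 ± 0.25 at day 2 (log2 change ± SE, adjusted p = 0.0121) and by 1.17 ± 0.25 at day 14 (adjusted p = 0.00867), or by 0.83 and 0.91 without day 0 replicate 2. RAB8B, of apical and ciliary transport, had 5.20, 2.02 and 4.98 TPM at day 0, 7.49, 8.13 and 8.67 TPM at day 2, and 9.84, 9.13 and 9.18 TPM at day 14. RAB8B changed by 0.91 ± 0.28 at day 2 (log2 change ± SE, adjusted p = 0.036) and by 1.11 ± 0.28 at day 14 (adjusted p = 0.0161), or by 0.58 and 0.77 without day 0 replicate 2. Its day 2 call ended without any one of 6 libraries, those of day 2 and day 14 (adjusted p = 0.054 to 0.109), and its day 14 call without day 14 replicate 1 (0.0518). Both RAB8B calls also ended with only the 2 days compared (0.0911 and 0.0551). That of day 2 ended too with no filter, with replicate number as a block and without microRNA symbols (0.0597, 0.0581 and 0.058). RAB8A had 45.1, 10.8 and 47.6 TPM at day 0, 26.9, 36.7 and 30.9 TPM at day 2, and 40.4, 36.8 and 32.7 TPM at day 14, with no call (log2 changes 0.11 ± 0.49 and 0.33 ± 0.49, SE, adjusted p = 0.878 and 0.617). Without day 0 replicate 2, RAB8A was lower at day 2 (-0.55 ± 0.15, adjusted p = 0.0186), with -0.34 at day 14. RAB37, first described in mast cells, reached at most 1.82 TPM and was listed at 0 in day 0 replicate 2. It was called at both days (0.85 and 0.98), at day 2 not without day 0 replicate 1 or 2 or day 2 replicate 1 or 2 (adjusted p = 0.0532 to 0.0969), and at day 14 not without day 14 replicate 3 (0.0549). Under quantile normalization both calls ended (0.56 and 0.60, adjusted p = 0.067 and 0.0601).

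RAB27A, which docks secretory lysosomes and exosome-bearing endosomes at the plasma membrane, was the member lower at both days, with 4.59, 4.42 and 3.94 TPM at day 0, 1.30, 1.38 and 1.29 TPM at day 2, and 2.13, 2.24 and 2.33 TPM at day 14. The 3 days did not overlap at all. RAB27A changed by -1.19 ± 0.14 at day 2 (log2 change ± SE, adjusted p = 0.000716) and by -0.72 ± 0.14 at day 14 (adjusted p = 0.00623), or by -1.18 and -0.70 without day 0 replicate 2. Day 14 lay above day 2 by 0.48 ± 0.14 (adjusted p = 0.144). Its paralog RAB27B had 13.5, 4.31 and 8.94 TPM at day 0, 11.4, 5.07 and 10.4 TPM at day 2, and 5.43, 6.72 and 4.80 TPM at day 14 and overlapped throughout (log2 changes 0.06 ± 0.40 and -0.47 ± 0.40, SE, adjusted p = 0.927 and 0.384; -0.33 and -0.86 without day 0 replicate 2). MLPH, which tethers RAB27A to myosin Va, was at 17.2, 17.2 and 16.5 TPM at day 14, against 38.2, 27.6 and 34.2 TPM at day 0, and was lower (-0.93 ± 0.18, SE, adjusted p = 0.00626; -1.05 without day 0 replicate 2). RAB3B, RAB3D, RAB13 and RAB26 were not called in TPM in 9 libraries. Under median-ratio scaling and quantile normalization, RAB3D was higher at day 2 (0.69 and 0.65, adjusted p = 0.0282 and 0.0263). In the same fits RAB3B was lower at day 2 (-0.81 and -1.05, adjusted p = 0.0246 and 0.00329) and RAB26 at day 14 (-0.99 and -1.01, adjusted p = 0.0368 and 0.03). RAB3B, of regulated exocytosis, was lower at day 2 without day 0 replicate 2 (-0.999 ± 0.20, adjusted p = 0.00472).

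RAB40C, whose SOCS box recruits a cullin ubiquitin ligase, had 15.8, 5.41 and 17.2 TPM at day 0, 33.0, 49.5 and 31.4 TPM at day 2, and 33.5, 32.6 and 36.8 TPM at day 14. Day 0 replicate 2 was lowest and no deprived library was below 31.4 TPM. RAB40C changed by 1.61 ± 0.39 at day 2 (log2 change ± SE, adjusted p = 0.0147) and by 1.49 ± 0.39 at day 14 (adjusted p = 0.0183), or by 1.12 and 1.01 without day 0 replicate 2. The call ended at day 2 without day 2 replicate 2 (adjusted p = 0.0564) and at day 14 without any one day 14 library (0.051, 0.0503 and 0.0582). RAB40B had 1.65, 2.91 and 2.86 TPM at day 0, 2.84, 5.52 and 4.11 TPM at day 2, and 3.50, 3.02 and 5.08 TPM at day 14, with no call (log2 changes 0.56 ± 0.27 and 0.48 ± 0.27, SE, adjusted p = 0.147 and 0.188; 0.65 and 0.58 without day 0 replicate 2). RAB18, of lipid droplets and ER contacts, was tight within days, with 6.38, 5.87 and 6.31 TPM at day 0, 9.02, 8.65 and 9.74 TPM at day 2, and 11.1, 10.4 and 9.46 TPM at day 14. Its rise was called at both days and was among the smallest. RAB18 changed by 0.50 ± 0.16 at day 2 (log2 change ± SE, adjusted p = 0.0436) and by 0.66 ± 0.16 at day 14 (adjusted p = 0.0141), or by 0.46 and 0.62 without day 0 replicate 2. The day 2 call ended without any one of 8 libraries, all but day 0 replicate 2 (adjusted p = 0.0569 to 0.155), and the day 14 call without day 14 replicate 2 (0.0532). Both ended under median-ratio scaling (0.501 and 0.69) and quantile normalization (0.549 and 0.732). They also ended with only the 2 days compared (0.111 and 0.0703) and without microRNA symbols (0.0648 and 0.0577). The day 2 call ended too with no filter and with replicate number as a block (0.0503 and 0.11). RAB23 and RAB28, of cilia, were not called in TPM in 9 libraries. Under median-ratio scaling and quantile normalization RAB23 was lower at day 2 (-0.49 and -0.53, adjusted p = 0.0125 and 0.00554).

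The share of a gene in the summed TPM of its close paralogs is free of any factor that scales a whole library. The groups shown were picked after their values had been seen, and with 3 against 3 libraries an exact permutation test could not go below p = 0.1, so no test is given. RAB1A made up 18.9% to 21.7% of RAB1 TPM at day 0, 31.5% to 35.4% at day 2 and 27.2% to 35.3% at day 14. RAB5B made up 11.7% to 14.8% of RAB5 TPM at day 0, 27.9% to 29.8% at day 2 and 21.2% to 23.6% at day 14. Over the same days RAB5C held 56.5% to 75.8%, 43.8% to 49.1% and 51.2% to 60.8%, so the RAB5C share was lower in all day 2 libraries than in any day 0 library, replicate 2 included. RAB8B took 9.47% to 15.7%, 18.2% to 21.9% and 19.6% to 21.9% of RAB8 TPM. RAB11A took less of its group, at 22.4% to 29.1%, 12.2% to 16.6% and 17.9% to 19.5%. RAB27A held 25.4% to 50.7%, 10.3% to 21.4% and 25.0% to 32.7% of RAB27 TPM, low at day 2 alone. RAB39B held 10.6%, 60.8% and 13.9% of the TPM of RAB39A and RAB39B at day 0, 87.3% to 91.7% at day 2 and 70.9% to 83.0% at day 14. In day 0 replicate 2 this share rests on 2 values below 1 TPM.

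**Figure D4:**
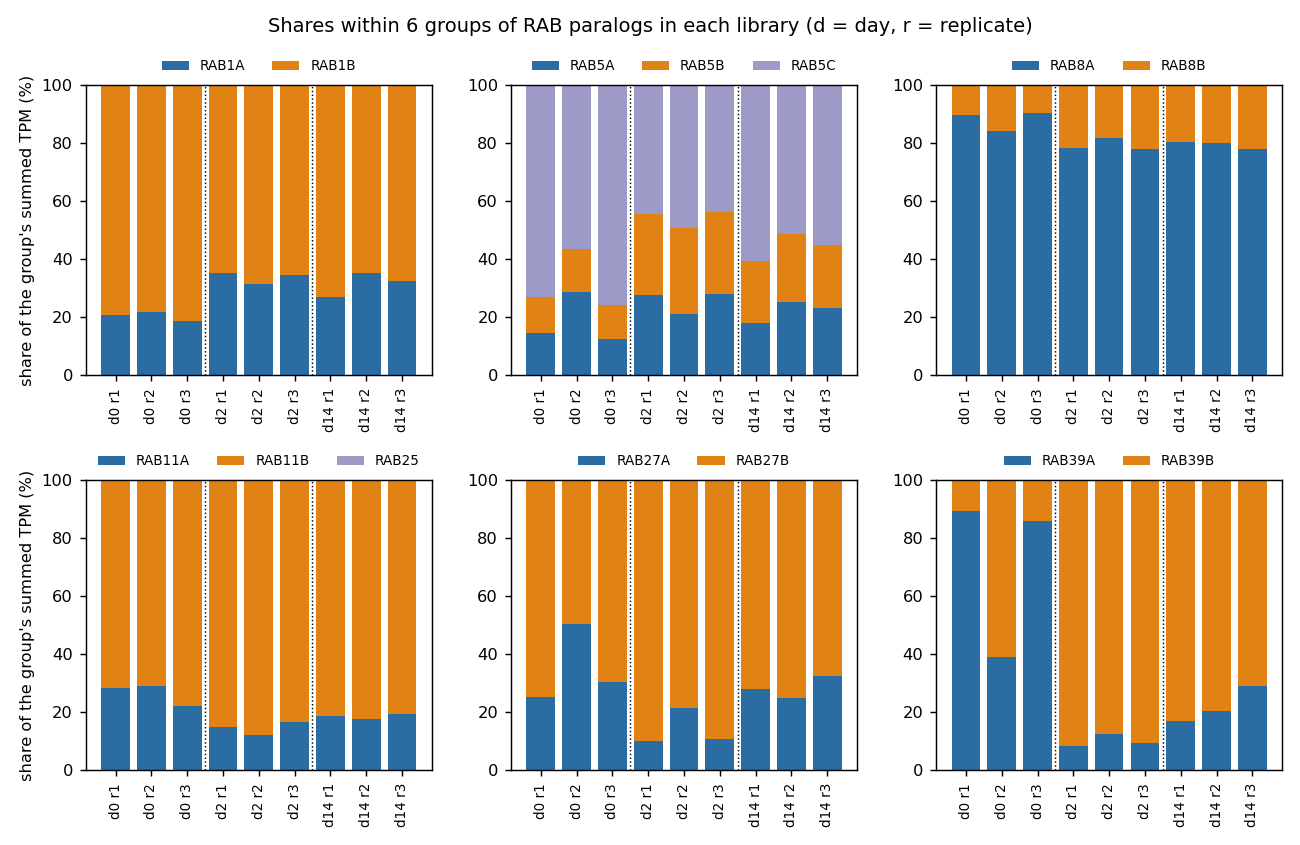
Share of the summed TPM of 6 groups of RAB paralogs (RAB1, RAB5, RAB8, RAB11 with RAB25, RAB27 and RAB39) held by each gene in each library, with dotted lines between days. RAB1A, RAB5B, RAB8B and RAB39B take a larger share in every deprived library than in any day 0 library, and RAB11A a smaller one.

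Between day 14 and day 2, no member was called, against 0.417% of all genes (30 higher and 29 lower). At an unadjusted p under 0.05, 6 members were higher and 1 was lower at day 14, against 14.7% and 3.4% of all genes. Libraries did not overlap for 20 members above day 2 and 1 below (36.8% and 7% of all genes). The median change of the members was 0.22, against 0.24 for all genes. Counts here turned on day 0 replicate 2, which enters this comparison only through the shared spread and the filter: without it 14 members were called, all higher at day 14 (26.9%, against 23.5% of all genes), and the largest changes were those of RAB11A (0.61), RAB5C (0.60), RAB15 (0.59) and RAB3B (0.58). With array weights, which give noisy libraries less weight, 20 were called as higher (38.5%, against 31.2% of all genes) and 2, RAB39B and RAB27B, as lower (-0.735 and -0.75). Fitting day 14 and day 2 alone called 8, all higher (15.4%, against 16.2% of all genes). Of the 3 members lower at day 2, RAB11A, RAB12 and RAB27A were each called as higher at day 14 than at day 2 in all 3 of these fits. They were picked for low values in the same day 2 libraries, which favours such a rise in advance, so no conclusion is drawn. None was called in the fit of 9 libraries, under median-ratio scaling (adjusted p = 0.584, 0.751 and 0.65) or under quantile normalization (0.3, 0.558 and 0.501).

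Genes that act on RABs were described from 4 lists with 149 symbols in the table, of which 133 were tested. At day 2, 27 were higher and 11 lower than at day 0 (20.3% and 8.27%, against 19.2% and 11.5% of all genes), and at day 14, 38 were higher and 5 lower (28.6% and 3.76%, against 27.5% and 6.72%). Their counts were thus close to those of all genes. Among 38 exchange factors, 8 were higher and 4 lower at day 2 (21.1% and 10.5%), and 12 higher (31.6%) and none lower at day 14. Among 37 GTPase-activating proteins these counts were 12 and 3 at day 2 (32.4% and 8.11%), and 13 and 1 at day 14 (35.1% and 2.7%). Of 51 effectors, 6 were higher and 4 lower at day 2 (11.8% and 7.84%), and 12 and 4 at day 14 (23.5% and 7.84%). The shares of all genes are those given above. Of the 7 genes that prenylate or extract RABs, 1 was higher at each day, CHML at day 2 and CHM at day 14, both RAB escort proteins. The CHML call ended without any one of 7 libraries (adjusted p up to 0.138) and that of CHM without any one day 14 library (up to 0.0886). Without day 0 replicate 2, 34 of the 133 were higher and 28 lower at day 2 (25.6% and 21.1%, against 24.7% and 23.6% of all genes). These were 11 and 7 exchange factors (28.9% and 18.4%), 14 and 6 GTPase-activating proteins (37.8% and 16.2%), 8 and 15 effectors (15.7% and 29.4%), and 1 higher in the last list (14.3%). Without any one of day 2 replicates 1, 2 and 3, 18, 22 and 18 regulators were called at day 2. In these fits 9.77%, 9.77% and 9.85% were higher, against 12.6%, 11.8% and 12.3% of all genes. The lower ones were 3.76%, 6.77% and 3.79%, against 6.74%, 8.78% and 6.85% of all genes. Without any one of day 14 replicates 1, 2 and 3, 21, 22 and 22 were called at day 14.

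The calls named next were kept under all 17 alternatives. DENND2A, an exchange factor of the DENN family, had 0.534, 0.557 and 0.539 TPM at day 0, 3.21, 4.48 and 3.97 TPM at day 2, and 6.79, 6.49 and 7.83 TPM at day 14. It was above day 0 in every deprived library (log2 changes 1.65 ± 0.16 and 2.38 ± 0.16, SE, adjusted p = 0.000364 and 0.000128; 1.66 and 2.38 without day 0 replicate 2). DENND4A, an exchange factor for RAB10, had 2.997, 0.808 and 2.99 TPM at day 0, 7.08, 7.83 and 7.45 TPM at day 2, and 8.87, 10.8 and 8.59 TPM at day 14 (log2 changes 1.46 ± 0.31 and 1.76 ± 0.31, SE, adjusted p = 0.00843 and 0.00376; 1.08 and 1.38 without day 0 replicate 2). TBC1D9, a GTPase-activating protein, had 5.42, 1.86 and 5.47 TPM at day 0, 19.5, 20.6 and 20.5 TPM at day 2, and 26.1, 30.8 and 22.8 TPM at day 14 (log2 changes 2.11 ± 0.31 and 2.48 ± 0.31, SE, adjusted p = 0.00196 and 0.00111; 1.72 and 2.09 without day 0 replicate 2). TBC1D17, which acts on RAB8 among others, had 15.3, 10.4 and 17.2 TPM at day 0, 50.2, 58.5 and 50.5 TPM at day 2, and 45.6, 37.8 and 39.6 TPM at day 14 (log2 changes 1.85 ± 0.21 and 1.48 ± 0.21, SE, adjusted p = 0.000594 and 0.00163; 1.65 and 1.28 without day 0 replicate 2). All 4 were higher at both days with no overlap. GCC2, a golgin, and TBC1D8B, a GTPase-activating protein, were higher at day 2 (0.995 and 1.29, or 0.77 and 1.05 without day 0 replicate 2). RAB11FIP1 and RAB11FIP2, effectors of RAB11, were higher at day 14 (1.37 and 1.31, or 1.03 and 0.96 without day 0 replicate 2). RAB11A was not called there in TPM, and was lower there under median-ratio scaling and quantile normalization. TBC1D1, which acts on the GLUT4 RABs, was at 3.68, 2.97 and 3.46 TPM at day 2, against 9.40, 7.96 and 8.74 TPM at day 0, and was lower (-1.15 ± 0.17, SE, adjusted p = 0.00168). TBC1D10A, which can inactivate RAB27A, was at 5.11, 6.32 and 4.37 TPM at day 2, against 15.7, 12.1 and 14.9 TPM at day 0, and was also lower (-1.28 ± 0.22, adjusted p = 0.00338). CCZ1 and CCZ1B, near-identical copies of a subunit of the RAB7 exchange factor, were lower at day 2 (-0.85 and -0.73), and the split between them is uncertain. ZW10, of Golgi to ER tethering, was lower at day 2 (-1.13 ± 0.15, adjusted p = 0.00118). The falls of TBC1D1, TBC1D10A, CCZ1, CCZ1B and ZW10 were -1.21, -1.39, -0.94, -0.68 and -1.17 without day 0 replicate 2.

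Promoter sequence is shown for the members that were called at both days under all alternatives and have 1 or 2 entries in the RefSeq promoter table (GRCh38.p14, 250 bases before to 50 after a start), so that a reader can see what a search for hypoxia motifs reads. These were RAB10, RAB6A and RAB6B, 3 of 7 such members. The TPM files name hg19, so the coordinates belong to the RefSeq table alone. Capitals mark the core of the hypoxia response element, ACGTG or GCGTG, on either strand (CACGT or CACGC where it lies on the other strand), each read 5′ to 3′ along the gene. RAB10 (chr2:26033834-26034133, plus strand) held 6 matches, the upstream RAB6A entry (chr11:73761025-73761324, minus strand) 5, the downstream RAB6A entry (chr11:73760046-73760345, minus strand) 0, and RAB6B (chr3:133895798-133896097, minus strand) 1. A second RAB6B entry overlaps the one shown, also held 1 match and is not printed.
RAB10: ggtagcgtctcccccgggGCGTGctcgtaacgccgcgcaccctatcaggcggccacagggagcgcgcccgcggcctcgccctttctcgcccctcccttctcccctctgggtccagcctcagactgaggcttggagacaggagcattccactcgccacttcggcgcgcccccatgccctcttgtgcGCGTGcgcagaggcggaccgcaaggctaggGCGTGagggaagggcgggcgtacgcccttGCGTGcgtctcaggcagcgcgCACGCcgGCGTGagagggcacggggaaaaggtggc
RAB6A, upstream entry: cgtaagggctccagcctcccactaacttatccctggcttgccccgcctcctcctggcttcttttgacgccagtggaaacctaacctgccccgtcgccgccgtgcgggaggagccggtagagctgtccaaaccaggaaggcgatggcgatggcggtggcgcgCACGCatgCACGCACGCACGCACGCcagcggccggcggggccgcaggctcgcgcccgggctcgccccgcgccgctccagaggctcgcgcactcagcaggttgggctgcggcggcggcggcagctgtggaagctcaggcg
RAB6A, downstream entry: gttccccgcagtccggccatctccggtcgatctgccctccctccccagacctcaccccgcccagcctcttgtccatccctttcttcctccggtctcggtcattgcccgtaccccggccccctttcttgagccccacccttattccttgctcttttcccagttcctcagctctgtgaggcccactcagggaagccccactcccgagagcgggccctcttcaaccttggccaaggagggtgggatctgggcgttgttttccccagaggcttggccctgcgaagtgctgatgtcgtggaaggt
RAB6B: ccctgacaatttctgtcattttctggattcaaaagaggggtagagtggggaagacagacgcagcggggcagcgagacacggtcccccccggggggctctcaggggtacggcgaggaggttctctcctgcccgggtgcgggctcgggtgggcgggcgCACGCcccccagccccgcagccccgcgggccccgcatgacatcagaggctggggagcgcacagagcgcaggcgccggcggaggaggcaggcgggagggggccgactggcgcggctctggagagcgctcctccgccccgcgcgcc
A match is a description of letters, not a site. Across the table, 48.4% of 35116 promoters held at least 1 core match, and so did 52.1% of the 71 entries for RAB members (50 of 63 members had an entry) and 11 of the 22 entries for members higher at both days. For the E-box CACGTG, which overlaps the core, the shares of the 3 sets were 7.26%, 8.45% and 4.55%. For TGATGNAA, a core of the amino acid response element, they were 3.62%, 1.41% and 0%. The shares of the members were thus near those of all promoters.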

How the data were processed

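RNA of PANC-1 cells was sequenced in 9 libraries, 3 at each of day 0, day 2 and day 14. The authors deposited TPM per gene symbol, and the tool named is Salmon and the build hg19, per the submitters' processing notes. Which Salmon version, annotation, strand setting and read filters applied is not given in the sources used here. Since TPM keeps no depth, no counting intervals are given, and a few abundant short symbols can lower all other values. An exact 0 in such a table can be a failed estimate.

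Columns were matched to samples by day and replicate number. Values were analysed as log2(TPM + 1) with limma 3.58.1 in R 4.3.3, 1 fit of 9 libraries with an intensity trend, two-sided, over symbols with at least 1 TPM in at least 3 libraries, adjusted by Benjamini-Hochberg at 0.05. The fit was tested on simulated data. The members, role lists, regulator lists and tests were chosen with earlier results of these data known. Any member could be named. Those given in full were the 12 called members with the largest change per comparison, the 6 with the highest mean TPM and 9 fixed by name, and per regulator list at most 4 rises and 4 falls with the largest change were named, narrowed after seeing the values to those kept under every alternative, beside CHML and CHM. RAB2A, RAB5C, RAB11B, RAB12, RAB18, RAB24, RAB27B, RAB35 and RAB39A were given in full after their values had been seen.

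The alternatives were a pseudocount of 0.1, no filter, median-ratio scaling, quantile normalization, array weights, a replicate block, fits restricted to 2 days, and omission of every library in turn. TPM without microRNA symbols, and the counts of the role and regulator lists under other scalings and without day 0 replicate 2, were chosen after seeing the data. Replicate numbers are shared between days, but deviations of same-numbered libraries from their day means correlated at only -0.0795 to 0.0154 across genes, and the numbers were not taken to pair samples. Promoter sequences came from RefSeq (GRCh38.p14), matched by symbol. No hg19 annotation or protein sequence was used here.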

Additional observations from a re-analysis of the deposited data

How the results depend on the processing

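No call of a RAB gene changed direction under any of the 17 alternatives. Of the 21 calls at day 2, 10 were kept under all of them, and of the 24 at day 14, 9 were, RAB10, RAB27A, RAB30, RAB33B, RAB39B, RAB6A and RAB6B at both days. Over all calls and alternatives, 289 of 356 cases at day 2 and 357 of 403 at day 14 kept the call. Where a call ended, the cause was not tested. Not every ending is named with its gene above. The replicate block ended 6 calls at day 2 and 1 at day 14, and the fit of only the 2 days 8 and 5. Leaving out the microRNA symbols ended 3 at each day. Called members at day 2 came to 36 with array weights (48.1% higher and 21.2% lower, against 30.5% and 33% of all genes). They came to 12 with only the 2 days compared (20% and 4%, against 14.3% and 8.89%). Leaving out 1 library gave 12 to 30. The 12 were without day 2 replicate 2 (19.2% and 3.85%, against 11.8% and 8.78%). The 30 were without day 0 replicate 2 (40.4% and 17.3%, against 24.7% and 23.6%). At day 14 leaving out 1 library gave 18 to 28, the 28 without day 0 replicate 2 (51.9% and 1.92%, against 34.6% and 14.5%). Between day 14 and day 2, where the fit of 9 libraries called no member, 1 (RAB19) was called with no filter, 22 with array weights, 8 with only the 2 days, and 0 to 14 on leaving out 1 library, the 14 without day 0 replicate 2.

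Over all genes, 4348 calls at day 2 became 8975 with array weights, 3123 with only the 2 days and 2678 to 6800 on leaving out 1 library. The 4841 calls at day 14 became 8455 with array weights, 3001 with only the 2 days and 3141 to 6913 without 1 library. Between day 14 and day 2, 59 calls became 6 with a pseudocount of 0.1, 131 with median-ratio scaling, 341 with quantile normalization, 5052 with array weights, 2 with the replicate block, 2648 with only the 2 days, 20 without microRNA symbols and 0 to 3854 on leaving out 1 library.

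Among regulators, 38 calls at day 2 became 89 with array weights, 23 with only the 2 days and 18 to 62 without 1 library, and 43 at day 14 became 79, 18 and 21 to 64, and 22 without microRNA symbols. Between day 14 and day 2, 0 became 2 with quantile normalization, 44 with array weights, 25 with only the 2 days and 0 to 37 without 1 library.

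With the replicate block, 15 members were called at day 2 (25% higher and 3.85% lower, against 14.6% and 8.67% of all genes). At day 14 they were 23 (42.3% and 1.92%, against 21.5% and 5.18%), and between day 14 and day 2 they were 0. Called regulators at day 2 were then 21 (10.5% and 5.26%). No library deviated most like a same-numbered one. The 11 members under the filter were tested only without it, and TPM gives no depth by which to limit what could be detected in them.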
